A study of Mus musculus with 36 samples.

Results

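The genes described here are 9 genes of the DNA methylation cycle, namely Dnmt1, Dnmt3a, Dnmt3b and Uhrf1, whose products write or keep up methylation, Tet1, Tet2 and Tet3, whose products take part in its removal, and Mbd1 and Mbd2, whose products read it. They were picked by gene name from the 56748 genes of an RNA-seq count table of mouse CD4+ T cells, without regard to their values, and all 9 had counts in every library. The study compared cells that lacked a heterochromatin protein with wild-type (WT) cells, in 2 mouse lines on a mixed 129/Sv and C57BL/6 background. In the HP1a line Cbx5, which encodes HP1α, had been deleted in the germ line by crossing a floxed allele with CMV-cre, so that KO animals lacked it in every tissue. In the HP1g line a floxed Cbx3 allele, which encodes HP1γ, was deleted by Cd4-cre, which acts in developing T cells, and WT animals carried the floxed allele without Cre. WT animals of both lines were littermates matched for sex, and mice were aged between 6 and 12 weeks.

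Each genotype was measured in 3 states. Naive cells were CD4+ T cells taken from the spleen and enriched on magnetic columns for CD62L+CD44-/low cells. Tconv were WT or KO cells recovered from the spleen of lethally irradiated C57BL/6 hosts, 3 weeks after transfer together with syngeneic and semi-allogeneic B6D2F1 bone marrow, and sorted by flow cytometry as Vβ6+ cells, that is, cells with a receptor chain that recognises the donor. Tconv with Treg came from hosts that had also been given WT regulatory T cells (Treg) expanded in culture. There were 3 libraries in each of the 12 groups. The third HP1g KO library with Treg was not used, following the study, which dropped it for its read quality, so that its group has 2 libraries here. The labels do not say whether replicates came from separate animals, so that p-values measure only the spread between these libraries, which may be technical.

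In mammals DNA methylation sits mainly on the cytosine of CpG dinucleotides. DNMT3A and DNMT3B place it on DNA that carried none, whereas DNMT1 copies it to the new strand after each round of replication, guided by UHRF1, which binds CpG sites methylated on the old strand only. The TET enzymes oxidise 5-methylcytosine, which is the first step of its removal. MBD1 and MBD2 hold a methyl-CpG-binding domain; MBD2 brings the NuRD complex, a remodeller with histone deacetylases, to methylated DNA, and MBD1 works with the histone H3 lysine 9 methyltransferase SETDB1, whose mark is the one that HP1 proteins bind. In T cells methylation has to be rewritten or erased at cytokine and lineage genes as naive cells become effector cells. RNA levels were measured here, and neither methylation nor protein.

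All 9 are protein-coding genes of GRCm39. The maintenance pair are Dnmt1 (ENSMUSG00000004099) at chr9:20817945-20871184 on the minus strand and Uhrf1 (ENSMUSG00000001228) at chr17:56610275-56630489 on the plus strand. The de novo enzymes are Dnmt3a (ENSMUSG00000020661) at chr12:3856007-3964443 and Dnmt3b (ENSMUSG00000027478) at chr2:153490861-153529650, both on the plus strand. The TET genes lie on the minus strand, Tet1 (ENSMUSG00000047146) at chr10:62640349-62744775, Tet2 (ENSMUSG00000040943) at chr3:133169436-133250900 and Tet3 (ENSMUSG00000034832) at chr6:83339355-83436066. The readers Mbd1 (ENSMUSG00000024561) at chr18:74400676-74415803 and Mbd2 (ENSMUSG00000024513) at chr18:70701260-70762203 share a chromosome and lie on the plus strand.

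The 35 libraries held between 37029477 and 63042165 counts, and the 9 genes had enough counts for none to be lost to the filter in any comparison. Levels are given in CPM, that is counts scaled to a common library size, with TMM factors. In the HP1a line Cbx5 was lower in KO than in WT cells in each state without overlap, with 9.20 to 12.3 against 18.5 to 25.0 CPM in naive cells. Likewise Cbx3 in the HP1g line had 64.7 to 73.6 CPM in KO Tconv and 86.6 to 106 CPM in WT Tconv, and did not overlap in any state. These are levels of RNA and not of protein. By western blot the study reported that HP1α was absent from HP1a KO naive cells and HP1γ almost fully lost from HP1g KO naive cells. The summed level of 7 T cell markers was between 5006 and 7996 CPM in all libraries. The markers of naive T cells (6 genes) summed to at least 6724 CPM in naive cells and to at most 2743 CPM in grafted cells. Transcripts of other lineages were uneven. The 10 myeloid markers summed to between 6.50 and 14.2 CPM in naive libraries and to between 7.10 and 511 CPM in grafted ones, and the 7 erythroid markers to between 2.05 and 6161 CPM in grafted ones, where the 4 HP1g libraries numbered 1 had the highest sums (3376 to 6161 CPM). At least 1 CPM was reached by 3 to 5 of the 10 myeloid markers in naive and by 3 to 10 in grafted libraries, and by 0 to 7 of the 7 erythroid markers in grafted ones. The B cell list (9 genes) stayed at or below 64.3 CPM. Replicate 2 of the HP1g WT naive cells stood apart from its group, with the lowest level among naive libraries for 7 of the 9 genes. The comparison of HP1g WT Tconv with naive cells is also given without it for Tet1, Tet2, Tet3 and Dnmt3b, and with it only for the other genes. That of HP1g KO with WT naive cells is also given without it for Mbd1.

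Per kilobase of the canonical transcript, Mbd2 had the highest level of the 9 genes in each of the 12 groups. In naive HP1a WT cells it had 82.3 ± 11.5 CPM per kb (SD, n = 3). Next came Dnmt1 with 23.7 ± 3.60 and Tet3 with 23.1 ± 0.87 CPM per kb, whose libraries overlapped. They were followed by Mbd1 (15.7 ± 1.78), Dnmt3a (8.71 ± 0.98) and Tet2 (4.10 ± 0.42 CPM per kb), each apart from its neighbours. Dnmt3b with 3.05 ± 0.32 and Tet1 with 2.77 ± 0.66 CPM per kb overlapped, and Uhrf1 was lowest at 1.59 ± 0.16. In HP1a WT Tconv Uhrf1 had 14.0 ± 6.42 CPM per kb, in a place in the order where it overlapped with Mbd1 (15.0 ± 2.02) and Tet3 (9.94 ± 0.64), and Tet1 was lowest at 0.18 ± 0.05 CPM per kb. Tet1 was last in 8 of the 12 groups, which are the grafted ones, and Uhrf1 was last in the 4 naive ones. The margin of Mbd2 depends on the length used: with all annotated exons in place of the canonical transcript, it had 18.2 ± 2.54 CPM per kb in naive HP1a WT cells, beside 16.5 ± 2.51 for Dnmt1.

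**Figure D1:**
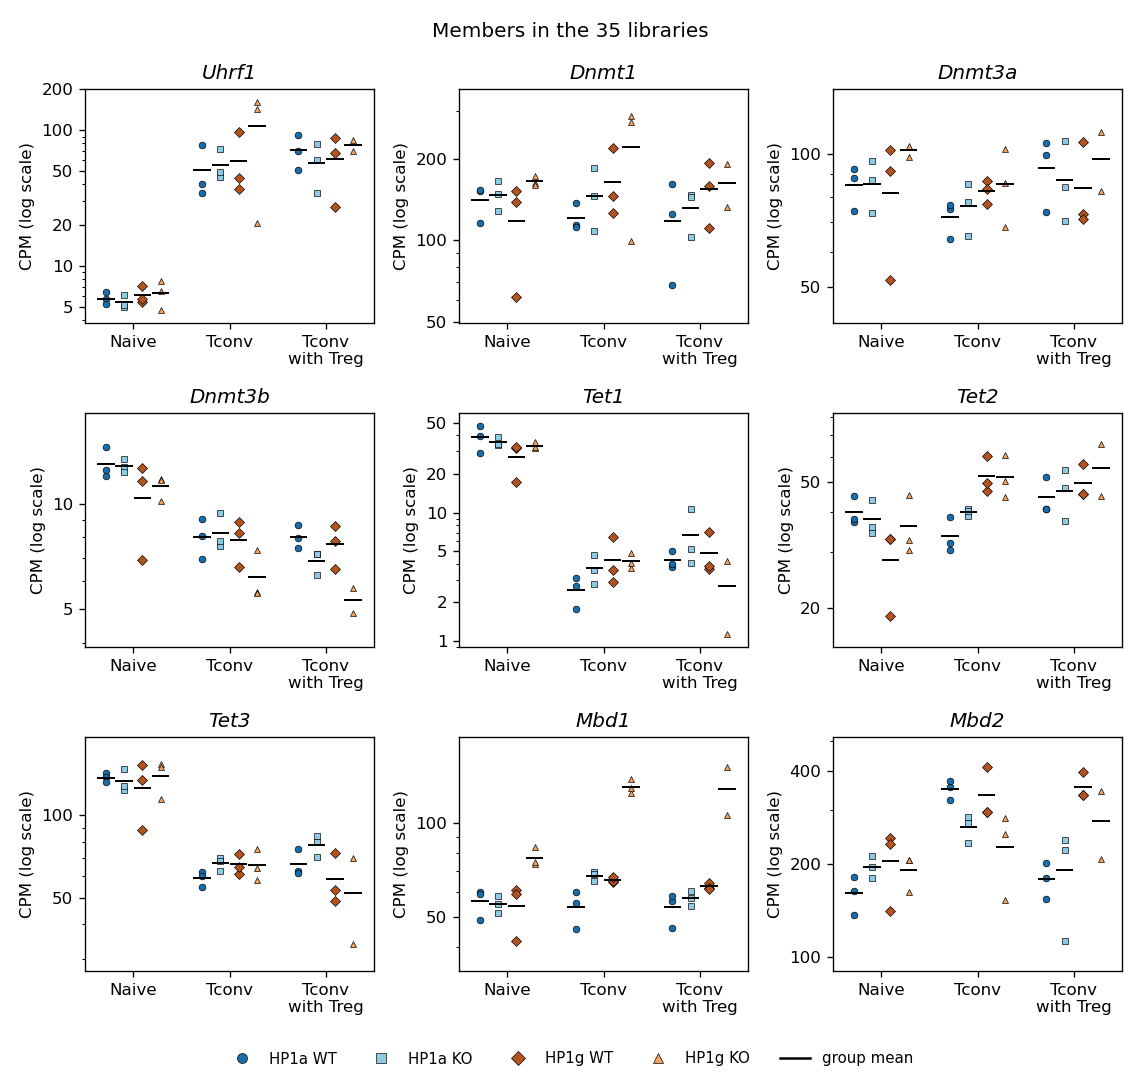
Level of each of the 9 genes in the 35 libraries, in CPM on a log scale, by state; points are libraries, symbols and colours stand for line and genotype, and bars are group means. Uhrf1 (20.8 CPM or more against 7.79 or less), Tet1 (10.8 or less against 17.5 or more) and Tet3 (84.1 or less against 88.6 or more) separate the 23 grafted from the 12 naive libraries, and Mbd1 is highest in the HP1g KO groups.

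The comparison of Tconv with naive cells asks how the methylation genes differ between resting cells and cells that answered the donor graft. Genes with a log2 fold change beyond 1 in either direction and an adjusted p below 0.05 in edgeR's quasi-likelihood test are referred to as called. Of the 9 genes, 4 were called in HP1a WT, 2 in HP1a KO, 2 in HP1g WT and 3 in HP1g KO cells, where 23.1%, 19.7%, 23.5% and 23.1% of all genes tested were called. Of all genes, 12.9%, 12.4%, 15% and 15.7% were called higher in Tconv, and 10.2%, 7.24%, 8.55% and 7.3% lower. Without the threshold on the fold change, 5, 6, 4 and 6 of the 9 genes passed, beside 45.7%, 40.6%, 31.4% and 41.1% of all genes. Libraries of Tconv and naive cells did not overlap for 5, 6, 6 and 5 of the 9 genes, nor for 57.7%, 54.9%, 51.9% and 53.3% of all genes. The median log2 fold change of the 9 genes was -0.24, 0.00, 0.29 and 0.27, and that of all genes tested was -0.04, -0.01, -0.03 and 0.02. With only 9 genes a single call shifts the share widely, and a departure from the background was not tested in any of the 4 comparisons. The changes of Uhrf1, Tet1 and Tet3 in opposite directions are described singly below. Naive cells and Tconv also differed in how they were isolated and in the hosts they came from, and these cannot be told apart from the response to the graft. In bulk samples, moreover, fewer cells of a type and less RNA per cell cannot be told apart.

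Uhrf1 rose in all 4 comparisons. In naive cells it had 5.68, 5.22 and 6.39 CPM in HP1a WT, 4.98, 5.16 and 6.15 in HP1a KO, 5.44, 5.75 and 7.17 in HP1g WT, and 6.50, 7.79 and 4.77 CPM in HP1g KO libraries. In Tconv it had 40.3, 77.5 and 34.6 CPM in HP1a WT, 45.0, 72.8 and 49.4 in HP1a KO, 36.9, 44.5 and 97.7 in HP1g WT, and 20.8, 161 and 144 CPM in HP1g KO libraries. No Tconv library overlapped with a naive one, and replicate 1 of HP1g KO Tconv lay far below the other two of its group. The log2 fold change was 3.14 (SE 0.31, adjusted p 0.000130) in HP1a WT, 3.37 (SE 0.21, adjusted p 3.67e-05) in HP1a KO, 3.29 (SE 0.39, adjusted p 0.000578) in HP1g WT and 4.13 (SE 0.83, adjusted p 0.0110) in HP1g KO cells. The last lost its call without replicate 1 of the naive cells (4.13, adjusted p 0.0508), while without replicate 1 of the Tconv it was 4.62 with an adjusted p of 1.21e-09.

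**Figure D2:**
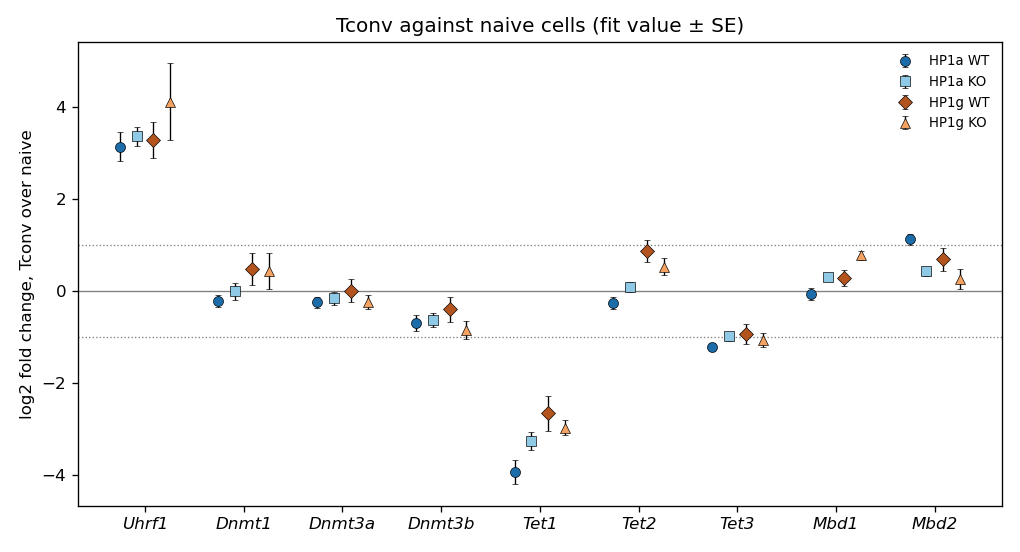
Log2 fold change of Tconv over naive cells for each of the 9 genes in the 4 comparisons, as fitted by edgeR with its SE; dotted lines mark the fold threshold of 1 and -1. Uhrf1 lies between 3.14 and 4.13 and Tet1 between -3.94 and -2.65, whereas Dnmt1 and Dnmt3a lie between -0.24 and 0.48.

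Dnmt1, the enzyme that UHRF1 guides, did not pass the test in any of these comparisons with all libraries in use. With 1 library left out it passed in 1 of 6 fits in HP1a WT cells (adjusted p 0.0242). It also passed in 1 of 6 fits in HP1g KO cells (adjusted p 1.04e-05). Over these fits Dnmt1 ran from -0.33 to -0.15 in HP1a WT and from 0.20 to 0.79 in HP1g KO cells. With all libraries its log2 fold changes were -0.21 (SE 0.13, adjusted p 0.218) in HP1a WT, 0.00 (SE 0.19, adjusted p 0.998) in HP1a KO, 0.48 (SE 0.35, adjusted p 0.332) in HP1g WT and 0.44 (SE 0.39, adjusted p 0.422) in HP1g KO cells. Its level ran from 62.0 to 173 CPM in naive cells and from 99.2 to 288 CPM in Tconv, and both extremes of Tconv were HP1g KO libraries. Across the 7 genes listed as partners of maintenance methylation, 6 were tested. Hells, a remodeller of the SNF2 family needed for methylation of repeats, rose in all 4 comparisons, by 2.04, 1.90, 2.06 and 3.01 on the log2 scale (adjusted p 0.00264 or less). Lig1, the ligase that joins newly made DNA, rose by 1.58 in HP1a WT, 1.55 in HP1a KO and 1.40 in HP1g WT cells, and its value in HP1g KO cells was 2.08 with an adjusted p of 0.0596. Cdca7, which works with HELLS, rose by 1.03, 1.33 and 1.15 in the same 3 comparisons and had a value of 1.73 with an adjusted p of 0.0612 in HP1g KO cells. Usp7, a deubiquitinase of the maintenance complex, passed the p threshold with lower levels in 3 comparisons, with -0.46 in HP1a WT, -0.60 in HP1a KO and -0.72 in HP1g KO cells, and was not called.

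Genes of the cell cycle, a list of 13 genes of replication and mitosis that does not hold Uhrf1, were also higher in Tconv. Of these 13, 9 were called higher in HP1a WT, 8 in HP1a KO, 9 in HP1g WT and 8 in HP1g KO Tconv, and none lower. The 3 with the largest change in HP1a WT cells were Mki67 (5.70), which marks cycling cells, the kinase gene Cdk1 (5.62) and the cyclin gene Ccna2 (5.56 on the log2 scale). Summed over the list, naive libraries had between 438 and 646 CPM and grafted ones between 739 and 3007 CPM. Within HP1g KO Tconv, replicate 1 had the lowest sum of all grafted libraries (739 CPM) and the lowest Uhrf1 (20.8 CPM), and replicates 2 and 3 had the highest sums (3007 and 2734 CPM) and the highest Uhrf1. The part of cell cycle genes in the rise of Uhrf1 was not tested. Over the 12 group means of log2(CPM + 1), the 3 genes most like Uhrf1 were Ncapg (Pearson r 0.999), Tpx2 (0.999) and Ccnb2 (0.999), which act in chromosome condensation, spindle assembly and entry into mitosis; the 12 points share the gap between naive and grafted cells. Among the 8 grafted groups alone, the closest were Ccna2 (0.987), Ncapd2 (0.980) and Ncapg (0.977).

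**Figure D3:**
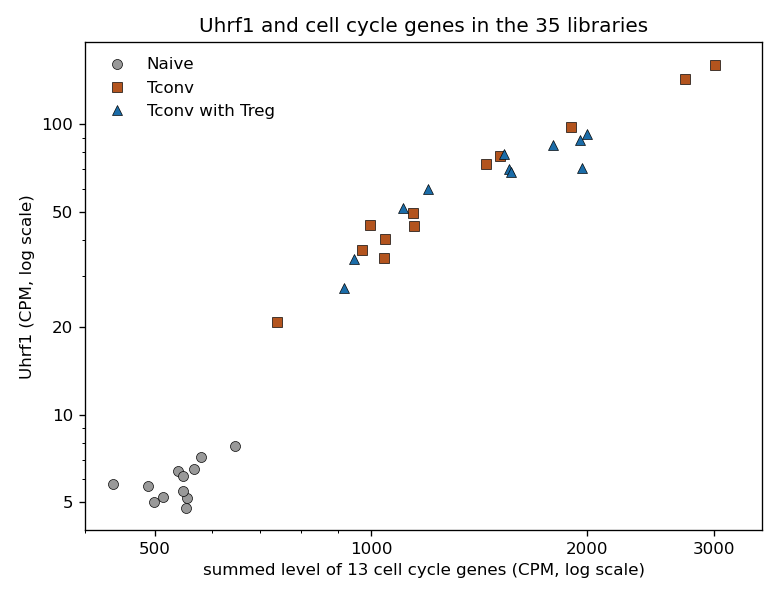
Uhrf1 against the summed level of 13 cell cycle genes in the 35 libraries, both in CPM on log scales; each point is a library, with the symbol and colour giving the state. Naive libraries sit at 4.77 to 7.79 CPM of Uhrf1, and among grafted ones Uhrf1 runs from 20.8 CPM at the lowest to 161 CPM at the highest cell cycle sum.

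Tet1 fell in all 4 comparisons. Its naive level was 29.1, 47.6 and 39.4 CPM in HP1a WT, 33.6, 34.3 and 38.7 in HP1a KO, 31.7, 17.5 and 32.4 in HP1g WT, and 31.9, 32.6 and 35.4 CPM in HP1g KO libraries. In Tconv it was 2.67, 3.09 and 1.77 CPM in HP1a WT, 2.79, 4.66 and 3.60 in HP1a KO, 2.88, 3.58 and 6.47 in HP1g WT, and 3.70, 4.03 and 4.86 CPM in HP1g KO libraries. The lowest naive value, 17.5 CPM, belongs to the library that stood apart and was still above each of the Tconv libraries. The log2 fold change was -3.94 (SE 0.27, adjusted p 1.21e-05) in HP1a WT, -3.26 (SE 0.20, adjusted p 3.64e-05) in HP1a KO, -2.65 (SE 0.38, adjusted p 0.00138) in HP1g WT and -2.97 (SE 0.16, adjusted p 3.49e-06) in HP1g KO cells. Without replicate 2 of the HP1g WT naive cells it was -2.88 (adjusted p 0.00211). Leaving out any library kept the call in all 4 comparisons.

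Tet3, the TET gene with the highest level in naive cells per kilobase, also fell. Its naive level was 142, 138 and 132 CPM in HP1a WT, 148, 124 and 128 in HP1a KO, 153, 88.6 and 135 in HP1g WT, and 154, 115 and 150 CPM in HP1g KO libraries. Tconv had 62.3, 60.1 and 54.8 CPM in HP1a WT, 70.1, 67.9 and 62.7 in HP1a KO, 61.2, 72.6 and 64.9 in HP1g WT, and 75.3, 57.9 and 64.2 CPM in HP1g KO libraries, all below each of the naive ones. The log2 fold change was -1.21 (SE 0.09, adjusted p 1.94e-05) in HP1a WT and -1.07 (SE 0.15, adjusted p 0.000741) in HP1g KO cells, and both were called. In HP1a KO cells it was -0.98 (SE 0.09, adjusted p 0.000217) and in HP1g WT cells -0.92 (SE 0.22, adjusted p 0.0139), which passed the p threshold but not that on the fold. In HP1a KO cells it was called without replicate 1 or 2 of the Tconv or replicate 2 or 3 of the naive cells (-1.06 to -1.01). In HP1g WT cells it was called without replicate 2 of the naive cells (-1.11, adjusted p 0.000458), and no longer passed without replicate 1 (-0.87, adjusted p 0.0592) or replicate 3 (-0.91, adjusted p 0.0555) of the Tconv. In HP1g KO cells the value without replicate 2 of the Tconv was -0.99 and was not called. Exons of Tet3 share 1512 bases with Bola3 on the other strand, and as the kit did not mark strand, reads there cannot be told apart; Bola3 had a median of 33.1 CPM in naive cells and 38.9 CPM in Tconv.

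Tet2, which like Tet1 and Tet3 encodes an oxidising enzyme, was not called. It had a log2 fold change of -0.25 (SE 0.13, adjusted p 0.153) in HP1a WT and 0.09 (SE 0.11, adjusted p 0.579) in HP1a KO cells, and passed the p threshold with higher levels in HP1g WT (0.88, SE 0.24, adjusted p 0.0255) and HP1g KO Tconv (0.54, SE 0.18, adjusted p 0.0472). HP1g WT naive libraries had 33.1, 18.9 and 32.9 CPM and Tconv libraries 46.7, 60.2 and 49.4 CPM, with no overlap. Without naive replicate 2 the change was 0.67 (adjusted p 0.00741), and without naive replicate 1 Tet2 was called (1.004, adjusted p 0.0362). It did not pass without replicate 2 (0.78, adjusted p 0.102) or replicate 3 (0.92, adjusted p 0.0642) of the HP1g WT Tconv. In HP1g KO cells it did not pass without replicate 1 or 3 of the Tconv, or without replicate 1 or 2 of the naive cells (0.40 to 0.57, adjusted p 0.0595 to 0.160). The difference between the activation effects of HP1g WT and HP1a WT cells, a test added after the values were seen, was 1.13 (SE 0.29) for Tet2 with an adjusted p of 0.202, so that the lines were not shown to differ by edgeR. DESeq2 called it, at 1.13 with an adjusted p of 0.0197, and called no other of the 9 genes. Tet1 and Tet2 had an unadjusted p under 0.05 in edgeR, as did 3350 of all 17107 genes. In that comparison 0.0117% of all genes were called by edgeR and 269 genes by DESeq2.

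Promoter windows from RefSeq were at hand for 7 of the 9 genes. The stretches printed here lie in the first window of Uhrf1, Tet1 and Tet3, which are the genes with a called change in at least 2 of the 4 comparisons, and hold no annotated exon of any gene; they were read on the strand of the gene and placed on GRCm39 by exact match, as chr17:56610087-56610274 on the plus strand for Uhrf1, chr10:62723104-62723191 on the minus strand for Tet1, and chr6:83418661-83418725 on the minus strand for Tet3. Capitals mark CpG dinucleotides, the sites that the proteins of this group write, erase or read.
Uhrf1: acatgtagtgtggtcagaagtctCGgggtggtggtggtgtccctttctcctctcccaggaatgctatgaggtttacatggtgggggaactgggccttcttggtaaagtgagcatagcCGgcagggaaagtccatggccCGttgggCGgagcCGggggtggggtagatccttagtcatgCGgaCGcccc
Tet1: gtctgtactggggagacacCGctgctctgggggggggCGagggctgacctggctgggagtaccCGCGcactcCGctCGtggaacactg
Tet3: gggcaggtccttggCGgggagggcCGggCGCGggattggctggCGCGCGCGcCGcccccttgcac
The Uhrf1 stretch held 7 CpG in 188 bases, that of Tet1 6 in 88 and that of Tet3 9 in 65. The whole first windows, 250 bases before a start in RefSeq, held 10 CpG for Uhrf1, 15 for Tet1 and 17 for Tet3. The median of 32851 windows was 6, and the second window of Uhrf1 held 30. For Tet1 and Tet3 the windows lie inside the gene bounds given above, so that these starts are internal to the annotated genes. Exons of the gene itself cover 62 bases of the first Uhrf1 window and 100 bases of the Tet1 window. An E2F motif, as occurs before genes of DNA replication, was searched on both strands as TTTCCCGC, TTTCGCGC, TTTGCCGC or TTTGGCGC, of which none contains another. It was in none of these 3 stretches; of the 12 windows of the 7 genes, the second of Uhrf1 and the third of Dnmt1 held 1 each, and 1.86% of all windows held it.

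Neither de novo enzyme was called. Dnmt3a, the more abundant of them, had log2 fold changes of -0.24, -0.16, 0.01 and -0.24 in HP1a WT, HP1a KO, HP1g WT and HP1g KO cells (adjusted p 0.135 or more), with naive libraries between 51.8 and 104 CPM and Tconv between 64.0 and 102 CPM. Dnmt3b, at 6.90 to 14.5 CPM in naive cells and 5.54 to 9.37 CPM in Tconv, passed the p threshold with lower levels in 3 of the 4 comparisons. Its values were -0.69 (SE 0.18, adjusted p 0.0126) in HP1a WT, -0.62 (SE 0.15, adjusted p 0.0136) in HP1a KO and -0.84 (SE 0.19, adjusted p 0.00714) in HP1g KO cells. In HP1g WT cells it was -0.39 (adjusted p 0.300) with all libraries and -0.61 (adjusted p 0.0349) without naive replicate 2. The HP1a WT value no longer passed without naive replicate 3 (-0.62, adjusted p 0.0542), nor did that of HP1a KO cells without replicate 3 of the Tconv (-0.59, adjusted p 0.0592) or replicate 2 of the naive cells (-0.62, adjusted p 0.0506).

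Mbd2 rose in HP1a WT Tconv. These had 357, 372 and 323 CPM, and the naive cells had 182, 137 and 163 CPM, with no overlap and a log2 fold change of 1.13 (SE 0.12, adjusted p 0.000145). In HP1a KO cells Mbd2 had 213, 196 and 180 CPM when naive and 284, 272 and 235 CPM as Tconv, for a log2 fold change of 0.44 (SE 0.10, adjusted p 0.0104), or 0.35 (adjusted p 0.0567) without naive replicate 3. In the HP1g line it was 0.70 (SE 0.25, adjusted p 0.0683) in WT and 0.27 (SE 0.22, adjusted p 0.358) in KO cells, where replicate 3 of the Tconv (153 CPM) was below all 3 naive libraries. The difference between KO and WT in this effect was -0.70 (SE 0.16, adjusted p 0.656) in the HP1a line and -0.40 (SE 0.36, adjusted p 0.683) in the HP1g line, and was not called; in the HP1a line it passed the p threshold with DESeq2 (-0.71, adjusted p 0.0264). Myeloid markers summed to between 7.10 and 8.43 CPM in HP1a WT Tconv and to between 13.6 and 163 CPM in HP1a KO Tconv, and erythroid markers to between 2.05 and 3.48 and between 26.6 and 770 CPM. T cell markers (6629 to 6914 against 5884 to 6074 CPM) and activated T cell markers (1643 to 1884 against 1374 to 1504 CPM) were higher in WT without overlap, and the part of these lists in the values was not tested.

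Mbd1 had log2 fold changes of -0.06 (adjusted p 0.753) in HP1a WT and 0.29 (adjusted p 0.253) in HP1g WT cells. It passed the p threshold in HP1a KO (0.32, SE 0.08, adjusted p 0.0127) and HP1g KO cells (0.78, SE 0.09, adjusted p 0.000238), where it was higher in Tconv and below the threshold on the fold. In HP1a KO cells it did not pass without replicate 2 or 3 of the Tconv or replicate 2 of the naive cells (0.28 to 0.31, adjusted p 0.0524 to 0.0634). For the 9 genes, no difference of the activation effect between KO and WT was called in either line. In the HP1a line 2 of the 9 genes (Mbd1 and Mbd2) and in the HP1g line 1 (Mbd1) had an unadjusted p under 0.05 in edgeR. So did 834 of 17038 and 1344 of 17024 of all genes. Of all genes 0.00587% and 0.0235% were called by edgeR. DESeq2 called none of the 9, and 68 and 101 of all genes.

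The partner lists moved unevenly between naive cells and Tconv. Among 13 genes of demethylation, 12 were tested. Gadd45g and Gadd45b, stress genes tied to repair-based demethylation, rose in all 4 comparisons, by 2.78 to 3.78 for Gadd45g and by 1.81 to 2.93 on the log2 scale for Gadd45b. Cxxc5, which has a CXXC domain like that of TET proteins, fell by 2.28 in HP1a WT, 2.29 in HP1a KO and 1.68 in HP1g WT cells, at levels of 2.48 CPM or less. Apex1, the endonuclease of base excision repair, fell by 1.40 in HP1g WT and by 1.09 in HP1g KO cells. Tdg, the glycosylase that cuts out oxidised 5-methylcytosine, had values from -0.16 to 0.48 and was not called, though it passed the p threshold in HP1g WT cells (adjusted p 0.0459). The list's medians were -0.32, -0.23, 0.04 and 0.08.

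Of 8 further methyl-CpG readers, 7 were tested. Mbd5 fell by 1.12 in HP1a WT cells, and Zbtb38, a zinc finger reader, rose by 1.04 in HP1g WT cells. Zbtb4, another reader of the same family, passed the p threshold with lower levels in all 4 comparisons, between -0.94 and -0.61. The partners of MBD1, Setdb1 and Atf7ip, were not called, and Atf7ip passed the p threshold in 3 comparisons, with -0.75 in HP1a WT, -0.66 in HP1a KO and -0.53 in HP1g KO cells, and Setdb1 in HP1g KO cells (-0.35, adjusted p 0.0266).

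All 12 genes of the NuRD complex, which MBD2 recruits, were tested. None was called in the HP1a line. In HP1g WT cells Gatad2a was called higher, Chd3 fell by 1.06 and Hdac2 fell by 1.04, and in HP1g KO cells Chd3 fell by 1.16. The medians of the list ran from -0.15 to 0.15. Of 10 genes of the methyl donor cycle, Ahcy, which clears S-adenosylhomocysteine, rose by 1.13 in HP1a WT cells and no other was called. The medians of that list ran from -0.39 to -0.21.

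Naive cells of KO and WT animals, and grafted ones, were compared next, to ask whether the loss of either HP1 protein changes the methylation genes. In the HP1a line none of the 9 genes was called in naive cells, Tconv or Tconv with Treg, where 0%, 0.103% and 0.123% of all genes were called by edgeR. An unadjusted p under 0.05 in edgeR was found for 0, 4 and 0 of the 9. Among all genes it was found for 291 of 15549, 1324 of 15521 and 1975 of 16256. The 4 in Tconv were Tet2 (0.26), Tet3 (0.19), Mbd1 (0.34) and Mbd2 (-0.40 on the log2 scale, all with an adjusted p of 0.456 or more). DESeq2 called none of the 9, and 13, 128 and 590 of all genes. Mbd2 in Tconv passed its p threshold (-0.40, adjusted p 0.0108), as did 197 of all genes. Groups did not overlap for 0, 4 and 1 of the 9 genes, and for 6.17%, 15.3% and 21.5% of all genes. The replicate block, which applies to the naive cells, called 12 of all genes there and none of the 9. The mean effect over the 3 states, a comparison added after the values were seen, ran from -0.09 for Uhrf1 to 0.36 for Tet1. None of the 9 had an unadjusted p under 0.05 and none was called by DESeq2. Of all 18016 genes, edgeR called 0.283%, DESeq2 called 275, and 2198 had an unadjusted p under 0.05 in edgeR.

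In the HP1g line Mbd1 was the member with a call. Naive WT cells had 60.7, 41.8 and 59.2 CPM, and naive KO cells had 73.7, 83.9 and 74.7 CPM. In Tconv WT libraries had 64.8, 65.3 and 67.2 CPM, and KO libraries 138, 125 and 130 CPM. In Tconv with Treg WT libraries had 61.9, 61.5 and 64.3 CPM, and both KO libraries in use had 106.5 and 151 CPM. Each of the 8 KO libraries in use was above each of the 9 WT libraries of its line, and in the HP1a line Mbd1 had between 45.8 and 69.4 CPM in both genotypes.

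The log2 fold change of Mbd1 in HP1g KO over WT was 0.54 (SE 0.19, adjusted p 0.630) in naive cells, 1.02 (SE 0.08, adjusted p 0.0178) in Tconv and 1.04 (SE 0.16, adjusted p 0.162) in Tconv with Treg. It was therefore called in Tconv, where edgeR called 0.0437% of all genes, as against 0.00669% of genes when naive and 0% when grafted along with Treg. DESeq2 called more genes, with 233 of 16015 in Tconv, 39 of 14939 in naive cells and 565 of 17177 in Tconv with Treg. The call in Tconv lay near the threshold on the fold. DESeq2, RLE size factors and a fit of all libraries of the line gave values just under 1 (0.996 to 0.999, adjusted p 0.0182 or less) and no call. The fit without the filter on low counts and the replicate block kept the call. With each of the 6 libraries left out in turn the value was 0.96 to 1.05 and never called, and it passed the p threshold only without replicate 1 of the KO cells (adjusted p 0.0209, against 0.0793 to 0.370 without any other). In Tconv with Treg, Mbd1 was called by DESeq2, without the filter on low counts and in the fit of all libraries of the line. Of all genes, 181 of 28722 were called without the filter and 307 of 18435 in the fit of all libraries. In naive cells the value without WT replicate 2 was 0.36 (adjusted p 0.167). Of the 9 genes only Mbd1 had an unadjusted p under 0.05 in edgeR in each of the 3 states, and DESeq2 called no member in naive cells. Among all genes such a p was found for 863 of 14939 in naive cells, 1349 of 16015 in Tconv and 2028 of 17177 with Treg. Groups did not overlap for 2 of the 9 genes in each state, and for 16.8%, 13.9% and 29.4% of all genes.

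Averaged over the 3 states, a comparison added after these values were seen, Mbd1 was 0.85 higher on the log2 scale in HP1g KO cells (SE 0.09, adjusted p 0.000246) and was higher in 8 of 8 KO libraries. It passed the p threshold when any library was left out (0.75 to 0.93, adjusted p 0.00139 or less) and was below the fold threshold, so that it was not called; 0.77% of all genes were called. With the left-out library put back, which had 44.5 CPM when all 36 libraries were scaled together, the value was 0.74 with an adjusted p of 0.101. In the HP1a line the same mean was 0.13 (SE 0.07, adjusted p 0.462), and the difference between the lines was not tested. None of the other 8 genes passed in the HP1g line. Their mean effects ran from -0.35 for Mbd2 (adjusted p 0.318) to 0.42 for Uhrf1 (adjusted p 0.663). Mbd2 had an unadjusted p under 0.05, as did 2615 of all 18435 genes.

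**Figure D4:**
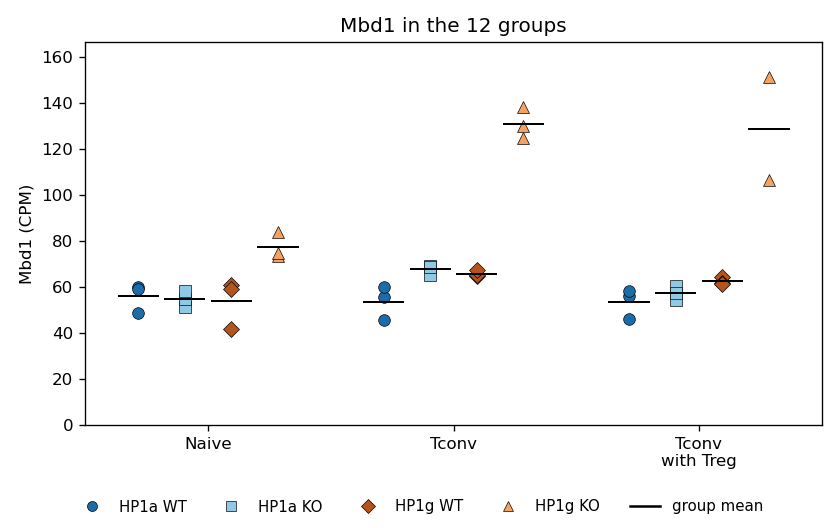
Mbd1 in the 35 libraries, in CPM, by state; points are libraries and bars are group means, with line and genotype given by symbol and colour. The 8 HP1g KO libraries in use, at 73.7 to 151 CPM, lie above all others in use, which are between 41.8 and 69.4 CPM. The left-out HP1g KO library, which is not shown, had 44.5 CPM when all 36 libraries were scaled together.

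The partners of MBD1 were not called in these cells. Setdb1 and Atf7ip were tested in HP1g KO against WT Tconv and neither was called, with a median of 0.15 for the pair. Their summed level was higher in KO libraries without overlap in naive cells (298 to 337 against 128 to 257 CPM) and in Tconv (208 to 244 against 196 to 198 CPM). With Treg it overlapped (199 to 248 against 181 to 211 CPM), and a relation to Mbd1 was not tested. No gene of the 7 pathway lists was called between HP1g KO and WT cells of any state. In the mean over states Cxxc5 was 1.86 higher in KO cells (SE 0.34, adjusted p 0.0132), with 3.25 and 15.9 CPM in KO Tconv with Treg and between 0.12 and 0.92 CPM in WT. Marker sums moved with genotype in the HP1g line as well. The B cell list, of which 1 to 5 of 9 genes reached 1 CPM in a library, was higher in KO cells without overlap in all 3 states, with 8.06 to 10.6 against 3.73 to 6.38 CPM in naive cells, 6.90 to 14.1 against 3.58 to 6.63 CPM in Tconv, and 24.2 to 26.2 against 4.77 to 15.7 CPM with Treg. In naive cells the erythroid sums also lay apart (64.2 to 78.7 CPM in KO and 10.0 to 50.8 CPM in WT). With Treg, KO and WT libraries lay apart for Treg markers (742 to 1325 against 535 to 624 CPM), activated T cell markers (1255 to 1557 against 1744 to 1994 CPM), T cell markers (6703 to 7411 against 5799 to 6229 CPM) and markers of CD8 T or NK cells (11.7 to 11.9 against 7.08 to 9.30 CPM). In Tconv the myeloid (40.0 to 98.9 against 24.7 to 324 CPM) and erythroid sums (158 to 3376 against 76.6 to 4979 CPM) overlapped. The part of these cells in the Mbd1 values was not tested. Cell cycle sums of HP1g KO Tconv were 739, 3007 and 2734 CPM, and the same libraries had 138, 125 and 130 CPM of Mbd1. The part of the cell cycle in the Mbd1 values was not tested. Over the 12 group means the genes most like Mbd1 were Oxsr1 (Pearson r 0.938), Prpf18 (0.875) and Sbno2 (0.874). Exons of Mbd1 share 704 bases with a non-coding gene on the other strand that is not in the count table, and reads of both cannot be told apart.

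None of these genes was called for an effect of Treg. Tconv with Treg were compared with Tconv to ask how these genes differ in the presence of Treg. In HP1a WT, HP1a KO, HP1g WT and HP1g KO cells edgeR called 5.96%, 0.44%, 0.0126% and 0% of all genes. The study states that, at the ratio of Treg in its HP1g experiment, the response of WT cells was not effectively repressed. An unadjusted p under 0.05 in edgeR was found for 3, 2, 0 and 0 of the 9. Among all genes it was found for 3514 of 15627, 2551 of 16133, 1095 of 15903 and 1294 of 16991. DESeq2 called none of the 9, and 1555, 379, 41 and 241 of all genes. Groups did not overlap for 3, 3, 1 and 0 of the 9 genes, nor for 34.8%, 22.7%, 13.4% and 24.4% of all genes. The replicate block, which applies to HP1g WT cells, called none of all genes there in place of 2. Mbd2 in HP1a WT cells passed the p threshold, as did 7.54% of all genes. It had 181, 154 and 201 CPM with Treg and 357, 372 and 323 CPM without, so that the groups did not overlap. Tet1 and Tet2 also did not overlap there, with higher levels with Treg. The Mbd2 level with Treg was near that of naive cells (137 to 182 CPM). The log2 fold change was -0.93 (SE 0.16, adjusted p 0.0144). It no longer passed without any one of the 3 Tconv libraries or without replicate 1 of the cells with Treg (adjusted p 0.0510 to 0.0762), and without replicate 3 of the cells with Treg it was called at -1.04. Myeloid markers summed to between 24.6 and 59.5 CPM with Treg and between 7.10 and 8.43 CPM without, and Treg markers to between 835 and 1026 and between 445 and 553 CPM. Activated T cell markers summed to between 1259 and 1409 CPM with Treg and between 1643 and 1884 CPM without, and T cell markers to between 7068 and 7544 and between 6629 and 6914 CPM. The part of these lists in the result was not tested.

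In HP1a KO cells Mbd2 had 113, 223 and 240 CPM with Treg against 284, 272 and 235 CPM without, which overlap (log2 fold change -0.45, SE 0.27, adjusted p 0.503). In HP1g WT cells it had 398, 335 and 334 CPM with Treg against 412, 296 and 295 CPM without (0.09, SE 0.15, adjusted p 0.947), and in HP1g KO cells 208 and 346 CPM with Treg against 249, 281 and 153 CPM without (0.28, SE 0.32, adjusted p 0.890). The HP1g WT groups overlapped. The difference of the Treg effect between HP1g WT and HP1a WT cells, a test added after the values were seen, was 1.03 for Mbd2 (SE 0.23, adjusted p 0.0429) and was called, as were 1.56% of all genes. In the fit of all libraries the adjusted p was 0.0846, and with 1 library left out the call held only without HP1a WT replicate 3 with Treg or HP1g WT replicate 1 without (0.94 to 1.22, adjusted p 0.0183 to 0.115 over the 12 fits). The labels do not say whether the lines were grafted and sequenced together, and line and experiment cannot be told apart. The weak repression of HP1g WT cells that the study states also cannot be told apart from the line. The difference of the Treg effect between KO and WT was not called for any of the 9 genes in either line, by edgeR or DESeq2. None of the 9 had an unadjusted p under 0.05, whereas 1675 of 17205 genes in the HP1a line and 667 of 17833 in the HP1g line did. Of all genes edgeR called 0.139% in the HP1a line and 0% in the HP1g line, and DESeq2 called 335 and 16 genes.

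**Figure D5:**
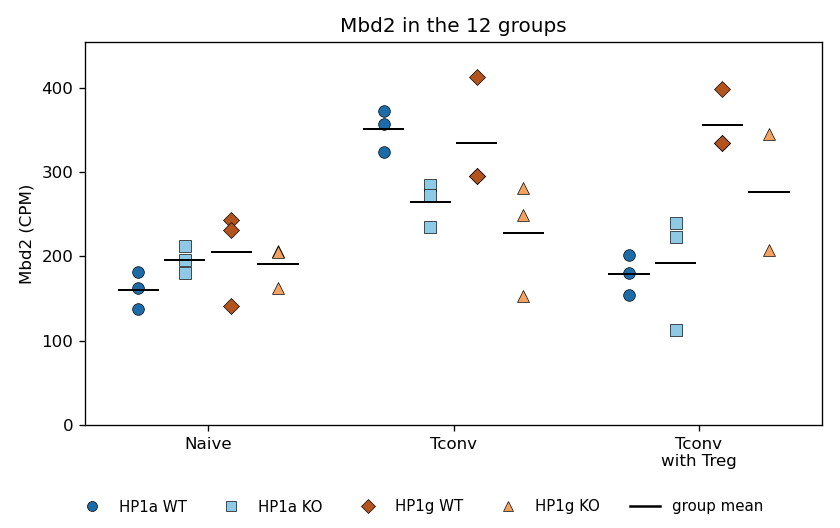
Mbd2 in the 35 libraries, in CPM, by state; points are libraries and bars are group means, with line and genotype given by symbol and colour. HP1a WT Tconv (323 to 372 CPM) lie above HP1a WT naive cells (137 to 182 CPM) and HP1a WT Tconv with Treg (154 to 201 CPM), whereas the HP1g WT groups with and without Treg overlap.

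The other 8 genes did not pass under Treg in any group. Uhrf1 had log2 fold changes of 0.53 (SE 0.34) in HP1a WT, 0.07 (SE 0.32) in HP1a KO, 0.03 (SE 0.54) in HP1g WT and -0.49 (SE 0.79) in HP1g KO cells, with adjusted p of 0.408 or more. Its SE in the HP1g line shows how far the libraries of a group lay apart, and a change of about the size of that error could not be detected there. Tet1 had 0.80 (SE 0.36, adjusted p 0.244) and 0.87 (SE 0.39, adjusted p 0.344) in HP1a WT and KO cells and stayed at 10.8 CPM or less with Treg, below each of the naive libraries, and had 0.16 (SE 0.39) and -0.65 (SE 0.57) in HP1g WT and KO cells. Dnmt1, Dnmt3a, Dnmt3b, Tet2, Tet3 and Mbd1 had values between -0.45 and 0.44 in the 4 comparisons. Of the pathway lists, Cxxc5 in HP1a WT cells was called, at 5.83 (SE 0.91, adjusted p 0.0113), with 5.96 to 40.2 CPM with Treg and 0.08 to 0.70 CPM without.

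Over the 12 group means, Tet1 and Tet3 had a Pearson r of 0.986 with each other, and Tet3 was among the 3 genes most like Tet1, with Foxp1 (0.986), a transcription factor that keeps T cells quiescent, and Usp24 (0.986). The genes most like Tet3 were Trio (0.989), Atn1 (0.987) and Pogz (0.987). Uhrf1 had an r of -0.962 with Tet1 and -0.956 with Tet3. For Dnmt3b the closest were Gart (0.966), Trmt1 (0.958) and Ly6c1 (0.954), for Dnmt1 Virma (0.943), Strn (0.925) and Haus6 (0.925), and for Dnmt3a Rab11fip3 (0.934), Slc5a3 (0.926) and Dgkz (0.918). For Tet2 they were Phka2 (0.958), Kif13b (0.945) and Nlrc5 (0.943), and for Mbd2 Eif1ad (0.973), Plpp6 (0.928) and Lrpap1 (0.925). These are descriptions over group means that share libraries and, in most cases, the gap between naive and grafted cells; of the 27 genes named, 4 were also among the closest when naive groups were left out.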

How the data were processed

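RNA-seq libraries made by SMART-Seq amplification from sorted or enriched CD4+ T cells were analysed. The authors trimmed reads, aligned them with STAR to GRCm39 and quantified them with Salmon through nf-core/rnaseq. The values they deposited are estimated counts (expected counts) per gene, not scaled or filtered, of which 82.9% were exactly whole. Salmon divides reads between genes that match equally well, and the kit did not mark strand.

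Columns were matched to samples by name and samples to groups by title. Counts were rounded. Each comparison was fitted with edgeR 4.0.16 in R 4.3.3 (TMM, filterByExpr, robust quasi-likelihood test, libraries of the compared groups only) over all genes, with Benjamini-Hochberg adjustment over all genes tested (called: below 0.05, with a log2 fold change beyond 1 in either direction). The scripts were tested on simulated data. DESeq2 1.42.0, which the study used, RLE size factors, no filter, all libraries of the line, a replicate block, no fold threshold, the left-out library and each library left out were alternatives. Gene positions come from the annotation of GRCm39 and promoter windows from RefSeq (GRCm38.p6). The genes, lists and tests were chosen with earlier results of these data known; 4 comparisons (both mean KO effects and both differences between lines) were added after values were seen. All 9 genes were named in each comparison, and of each partner list the called genes, at most 3 in each direction, along with named partners that were not called, which were chosen after their values were seen; likeness used genes averaging 5 CPM or more over groups, without predicted genes or receptor segments.

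With 3 or more pairs, libraries counted as paired by replicate number where each correlation of deviations from the group means exceeded 0.1. This held for KO against WT in HP1a naive cells (0.457 to 0.817) and for the Treg effect in HP1g WT cells (0.145 to 0.463), where the replicate block left the count of members called at 0. KO against WT in HP1g Tconv with Treg has only 2 pairs (0.212 and 0.408) and was not counted as paired.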

Additional observations from a re-analysis of the deposited data

Results flagged for a closer look

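The difference of the Treg effect between HP1g WT and HP1a WT cells was called for Mbd2, at 1.03 on the log2 scale (adjusted p 0.0429 in edgeR's test of the difference), and for Cxxc5, at -5.61 (adjusted p 0.0346). The library that was left out, replicate 3 of HP1g KO Tconv with Treg, had 576 CPM of Dnmt1, 67.5 CPM of Tet1, 167 CPM of Tet2 and 592 CPM of Tet3, each above the 3 HP1g WT libraries with Treg. On the same scale, set over all 36 libraries and not over the 35 in use, both other libraries of its group had means of 158, 2.61, 53.8 and 50.4 CPM for the same genes. It also had a TMM factor of 0.423, the lowest of the 36 libraries. Dnmt1, Tet1, Tet2 and Tet3 had been picked for this check. Dnmt3a (179 CPM) was also above the HP1g WT libraries with Treg (71.2 to 106 CPM). Dnmt3b (3.65), Mbd1 (44.5) and Mbd2 (91.7 CPM) were below them (6.51, 61.5 and 334 CPM or more), and Uhrf1 (68.8 CPM) lay among them. These WT levels were scaled over the 35 libraries. Groups of 3 libraries were not tested for single libraries that stand apart.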

How the results depend on the processing

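Of 292 refits of the 25 member values that passed an adjusted p under 0.05, none changed direction and 252 kept that side of the threshold; the 40 that did not were 35 of the fits without 1 library, 4 of the fits of all libraries of the line and the fit with the left-out library. DESeq2, RLE size factors, no filter on low counts and the replicate block kept all 25 each. For the number of the 9 genes called, removing the threshold on the fold gave 6 in place of 2 in HP1a KO, 4 in place of 2 in HP1g WT and 6 in place of 3 in HP1g KO activation, 1 in place of 0 for the Treg effect in HP1a WT and 1 in place of 0 for the mean KO effect in the HP1g line. KO against WT in HP1g Tconv gave 0 in place of 1 with DESeq2, with RLE size factors and with all libraries of the line, and in Tconv with Treg 1 in place of 0 with DESeq2, with no filter and with all libraries of the line. The difference of the activation effect between WT cells of the lines gave 1 in place of 0 with DESeq2 and with no filter, and that of the Treg effect 0 in place of 1 with all libraries. Leaving out each library gave 2 to 3 in the HP1a KO, HP1g WT and HP1g KO activation comparisons, 4 to 4 in HP1a WT, 0 to 1 under Treg in HP1a WT cells, 0 to 0 for KO against WT in HP1g Tconv, and 0 to 1 for the difference of the Treg effect between lines; where a group then had 2 libraries fewer were left to estimate the spread, and the cause of other changes was not tested. The replicate block left the number of the 9 genes called at 4, 2, 2 and 3 for activation and changed it in no other comparison. Where the numbers did not pair the libraries by the rule above, what this block adjusted for was not tested. The grafted HP1g libraries numbered 1 did share the highest erythroid sums. In HP1g Tconv the block called 74 of all genes between KO and WT in place of 7, with Mbd1 still called. In HP1g Tconv with Treg, which has 2 pairs, it called 30 of all genes between KO and WT in place of 0, and Mbd1 had 1.04 with an adjusted p of 0.124. Without the filter the median log2 fold change of all genes was -0.14 in HP1a WT activation and 0.15 in the line difference of activation. Of the 27 closest genes, 22 were shared at a minimum of 1 CPM. Depth limits low genes such as Tet1, which had as few as 65 counts in a Tconv library.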
